A study of Arabidopsis thaliana with 28 samples.

Results

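The loci described here were silent in wild-type plants of both Arabidopsis thaliana accessions, Columbia (Col) and C24, and strongly transcribed in the ddm1 mutants of both. They were chosen by level alone. A locus was a member when the mean of the 3 libraries was at most 0.5 RPM (reads scaled to a common library total) in WT-Col and in WT-C24 and at least 20 RPM in ddm1-Col and in ddm1-C24, with 9 loci named in the rule set aside, of which 0 met the limits. This gave 231 members among 28437 loci. Since the parental values chose the members, the parents are described below without a test, and tests are given only in the hybrids, which the rule did not use.

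The RNA-seq part of the series holds 24 libraries of whole 2-week-old seedlings, 3 for each of 8 genotypes. The mutant hybrids ddm1-C24xCol and ddm1-ColxC24, together ddm1-F1, came from reciprocal crosses of the homozygous mutants, with the mother written first, and their parents were ddm1-C24 and ddm1-Col. Both parents carry the mutation, so ddm1-F1 plants have no wild-type DDM1 allele from either side. The wild-type counterparts were WT-C24xCol and WT-ColxC24 (WT-F1), WT-C24 and WT-Col. The study worked with several ddm1 alleles and kept the homozygous mutants for few generations, but which alleles the sequenced plants carried is not given in the sources used here. Nothing in the labels says that the 3 libraries of a genotype came from separate plantings, so the p-values below measure the spread between these libraries, which may be technical.

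DDM1 is a chromatin remodeller of the SWI/SNF class that gives DNA methyltransferases access to heterochromatin. Plants without it lose cytosine methylation, above all in the CG context, over the transposable elements packed around the centromeres, and many of these elements are then transcribed. Most elements of the Arabidopsis genome are old and immobile copies, and retrotransposons with long terminal repeats carry a direct repeat at each end whose 5′ copy holds the promoter.

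All 231 members are annotated in the RefSeq annotation of TAIR10.1, where 214 are pseudogenes, 2 transcribed pseudogenes, 14 protein-coding genes and 1 a non-coding RNA. The study's own annotation calls nearly all of the pseudogenes transposable element genes. For comparison, 1632 other tested loci were silent in both WT parents (called the other silent loci below), and 22329 loci were tested in all, of which 1619 and 22296 are annotated. Shares and medians of annotation, position and sequence are over annotated loci. A pseudogene of either kind was 93.5% of the members, 85.3% of the other silent loci and 8.54% of all loci tested. The rule used no sequence, so these features are a description of what the chosen loci share.

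Windows at the annotated starts of the members that the results turn on are shown next. They are printed because loss of CG methylation is the known molecular change in ddm1. A pair of loci with nearly the same window also differed widely in level. Each window runs from 250 bases before to 50 bases after the annotated start of the locus in RefSeq TAIR10.1, 5′ to 3′ along the locus, with its CG sites in capitals. Whether transcription starts there was not tested, so a window need not hold the promoter of its locus. AT3G32230 (chr3:13203651-13203950, plus strand, 11 CG sites) and AT1G36630 (chr1:13847576-13847875, minus strand, 4 CG sites) had the highest hybrid levels among the 231 members. AT3G32226 (chr3:13198381-13198680, plus strand, 10 CG sites) and AT1G36200 (chr1:13580947-13581246, minus strand, 11 CG sites) belong to the sequence family of AT3G32230 and lay far below their parents in the hybrids. AT4G06506 (chr4:3182291-3182590, minus strand, 5 CG sites) and AT2G13390 (chr2:5566748-5567047, plus strand, 6 CG sites) share almost the whole window. AT1G59930 (chr1:22061467-22061766, minus strand, 7 CG sites) is an annotated MADS-box gene on a chromosome arm.
AT3G32230: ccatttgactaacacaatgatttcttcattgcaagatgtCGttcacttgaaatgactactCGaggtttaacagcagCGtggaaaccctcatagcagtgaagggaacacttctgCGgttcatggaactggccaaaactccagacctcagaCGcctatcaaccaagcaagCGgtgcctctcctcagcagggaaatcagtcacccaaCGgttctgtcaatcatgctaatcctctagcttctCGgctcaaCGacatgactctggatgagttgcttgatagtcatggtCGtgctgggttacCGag
AT1G36630: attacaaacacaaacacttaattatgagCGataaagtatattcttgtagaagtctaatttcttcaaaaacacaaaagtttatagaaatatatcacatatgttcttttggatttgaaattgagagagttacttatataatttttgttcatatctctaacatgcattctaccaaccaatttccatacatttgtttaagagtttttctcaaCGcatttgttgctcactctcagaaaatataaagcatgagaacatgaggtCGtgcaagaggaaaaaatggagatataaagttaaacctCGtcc
AT3G32226: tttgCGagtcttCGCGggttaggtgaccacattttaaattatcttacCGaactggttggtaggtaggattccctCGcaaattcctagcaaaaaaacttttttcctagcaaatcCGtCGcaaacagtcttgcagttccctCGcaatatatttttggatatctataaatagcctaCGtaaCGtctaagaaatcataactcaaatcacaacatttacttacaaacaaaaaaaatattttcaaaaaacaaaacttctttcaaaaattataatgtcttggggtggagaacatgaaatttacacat
AT1G36200: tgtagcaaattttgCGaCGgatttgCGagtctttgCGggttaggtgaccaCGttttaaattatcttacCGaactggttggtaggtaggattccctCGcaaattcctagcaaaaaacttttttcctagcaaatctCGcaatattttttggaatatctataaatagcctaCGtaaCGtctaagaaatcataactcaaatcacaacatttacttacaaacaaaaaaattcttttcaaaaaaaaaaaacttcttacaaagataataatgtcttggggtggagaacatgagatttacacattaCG
AT4G06506: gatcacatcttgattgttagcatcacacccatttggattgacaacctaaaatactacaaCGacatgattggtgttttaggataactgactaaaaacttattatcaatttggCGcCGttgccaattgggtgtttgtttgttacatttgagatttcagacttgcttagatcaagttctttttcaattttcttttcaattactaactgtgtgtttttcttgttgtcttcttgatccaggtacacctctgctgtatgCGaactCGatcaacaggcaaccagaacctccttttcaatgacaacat
AT2G13390: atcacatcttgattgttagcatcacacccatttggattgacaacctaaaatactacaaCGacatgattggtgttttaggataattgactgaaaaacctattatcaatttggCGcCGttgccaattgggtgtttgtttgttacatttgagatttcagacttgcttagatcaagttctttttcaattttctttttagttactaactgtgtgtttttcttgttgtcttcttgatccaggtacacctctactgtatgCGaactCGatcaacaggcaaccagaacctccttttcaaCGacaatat
AT1G59930: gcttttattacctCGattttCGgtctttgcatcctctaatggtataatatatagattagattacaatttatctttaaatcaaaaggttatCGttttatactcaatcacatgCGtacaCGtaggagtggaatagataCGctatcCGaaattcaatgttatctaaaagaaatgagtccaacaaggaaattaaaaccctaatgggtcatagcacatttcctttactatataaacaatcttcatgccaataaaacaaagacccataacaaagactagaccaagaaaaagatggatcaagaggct
In gapped global alignments, 97.3% of the 300 bases were identical between AT4G06506 and AT2G13390, and 88.0% between AT3G32226 and AT1G36200. The window of AT3G32230 was 59.7% identical to that of AT3G32226 and 59.3% to that of AT1G36200. Both values were near the median of 58.7% over the 15 pairs of their family.

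Over all 231 members the window held a median of 9 CG sites (quartiles 5 and 14, range 1 to 26), against 8 in the other silent loci and 6 in all loci tested. The TATA-box core TATAAA, searched on both strands, was in 53 member windows (22.9%), against 29.0% of the other silent loci and 49.6% of all loci tested. The G-box CACGTG, a palindrome bound by bZIP and bHLH factors, was in 0 member windows, against 2.16% and 8.25%. The W-box core TTGAC, bound by WRKY factors and searched on both strands, was in 83 member windows (35.9%), against 47.6% and 50.7%. Each motif was counted whether or not it overlapped another, and a match marks letters only.

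The deposited RPM columns each summed to between 999819.3 and 1000187.1, so they do not show the number of reads behind a library, and no counting interval is given. The study refers to a supplementary table for its sequencing statistics, which were not used here. The values are written in steps of 0.1 RPM, and a locus listed at 0 may have had reads. A rescaling by median ratios over expressed loci gave factors of 0.855 to 1.19 between libraries. Once genotype means were removed, libraries with the same replicate number resembled each other across genotypes more than libraries with different numbers did, and results that this touches are given with a block for that number. Replicates 2 and 3 of ddm1-C24 were closer (SD of the log2 difference over all loci tested 0.182) than any other pair of replicates (0.472 to 0.838). Whether they are 1 library could not be tested from the RPM values, so parental values that move with them are given in both ways. The DDM1 transcript (AT5G66750) averaged 6.20 ± 1.97 RPM in ddm1-C24xCol, 6.10 ± 2.29 RPM in ddm1-ColxC24, 11.4 ± 4.11 RPM in ddm1-C24 and 2.30 ± 0.520 RPM in ddm1-Col, against 7.77 ± 3.76 RPM in WT-C24xCol, 8.33 ± 2.45 RPM in WT-ColxC24, 8.47 ± 3.44 RPM in WT-C24 and 9.47 ± 3.15 RPM in WT-Col (SD, n = 3 each). Transcript level therefore separated ddm1-Col from WT-Col without overlap, while the values of the mutants carrying a C24 allele overlapped those of their wild types. Between ddm1-F1 and WT-F1 it was called lower only with the block (log2 -0.35, limma adjusted p = 0.744, blocked adjusted p = 0.0245). It thus checks the labels of single libraries only in Col. Shoot markers (the Rubisco small subunit RBCS1A, the antenna protein CAB2 and Rubisco activase RCA) summed to 18600.3 to 25767.2 RPM in ddm1-F1 and 17174.8 to 25322.5 RPM in WT-F1, and root markers (CASP1, SCR and SHR) to 49.3 to 79.6 RPM and 43.2 to 72.1 RPM. The 4 seed markers summed to 1.0 to 159.0 RPM in ddm1-F1 and 2.8 to 624.7 RPM in WT-F1, and the 3 pollen markers were not analysed here.

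The members lay mainly in pericentromeric heterochromatin on all 5 chromosomes, with 42, 51, 54, 44 and 40 on chromosomes 1 to 5. Position was measured from the point of each chromosome where annotated pseudogenes are densest, which in Arabidopsis marks the heterochromatin around the centromere. Within 2 Mb of that point lay 182 members (78.8%), against 72.0% of the other silent loci and 8.99% of all loci tested. The median distance was 1.13 Mb for the members, 1.24 Mb for the other silent loci and 7.69 Mb for all loci tested. Within 500 kb of a member, a median of 65.6% of the annotated loci were pseudogenes, against 61.4% around the other silent loci and 3.43% around all loci tested. The pseudogene density counts the locus itself and other members, most of them pseudogenes, so these measures partly restate their annotation. The members resembled the other silent loci in place, and both stood apart from the tested loci as a whole. Genome coordinates here and below are those of TAIR10.1.

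**Figure D1:**
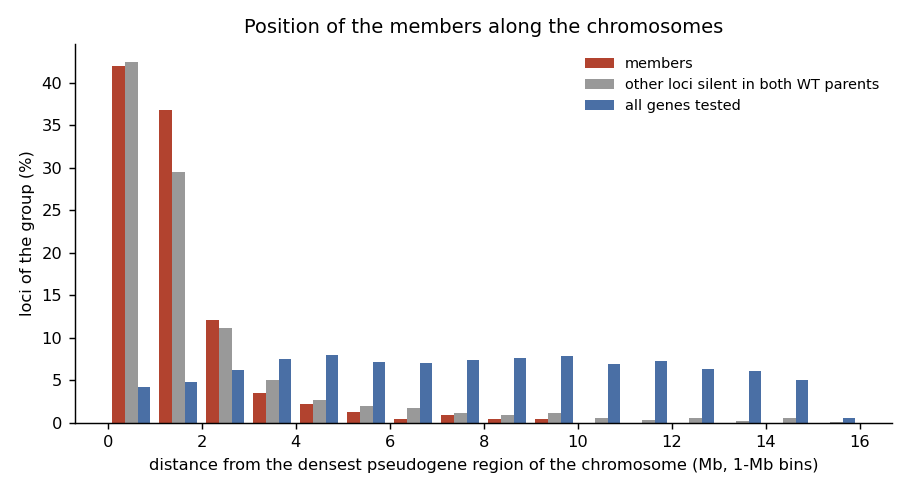
Share of loci (percent, y axis) in each 1-Mb bin of distance (x axis, Mb) from the point of the chromosome where pseudogenes are densest, as bars for the 231 members and the annotated loci among the other silent loci (1619) and all loci tested (22296). The members filled mostly the bins 0 to 1 Mb (97 loci, 42.0%) and 1 to 2 Mb (85 loci, 36.8%).

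The members formed sequence families. They were grouped by at least 80% identity over at least 80% of the shorter locus, from annotated start to end. Links through another member also joined a group. The members fell into 102 groups, of which 84 were single loci. The 8 largest families, of 27, 27, 18, 14, 11, 9, 6 and 5, held 117 members. The median exonic length of the 231 members was 2523 bases, against 2111 for the other silent loci and 1798 for all loci tested. Their median GC content was 42.6%, against 42.2% and 39.0%. A pair of direct repeats, as long terminal repeats are, was found in 73 members (31.6%), against 35.3% of the other silent loci. At least 95% identical sequence elsewhere in the genome covered at least 50% of the length in 97 members (42.0%), against 35.6% of the other silent loci. How the authors counted reads that match several places is not stated, so the values of these 97 members, which may hold reads of a near-identical copy, are uncertain, as are those of 7 members that overlap another locus (4 on the opposite strand, 3 on the same strand). Reads of C24 plants were aligned to the Col genome, and the part of that in any difference between accessions was not tested.

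In the mutants every member was detected, and in the wild types none reached 1 RPM. All 231 members were above 0 in each of the 12 ddm1 libraries, and between 13 and 119 were above 0 in a WT library. Summed over the members, transcripts took 1.93% to 2.18% of all counted reads in ddm1-C24xCol, 2.18% to 2.23% in ddm1-ColxC24, 2.26% to 2.73% in ddm1-C24 and 2.52% to 2.64% in ddm1-Col. In the 12 WT libraries the same loci summed to between 1.8 and 20.3 RPM. The parental part of this is what the rule asked for.

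**Figure D2:**
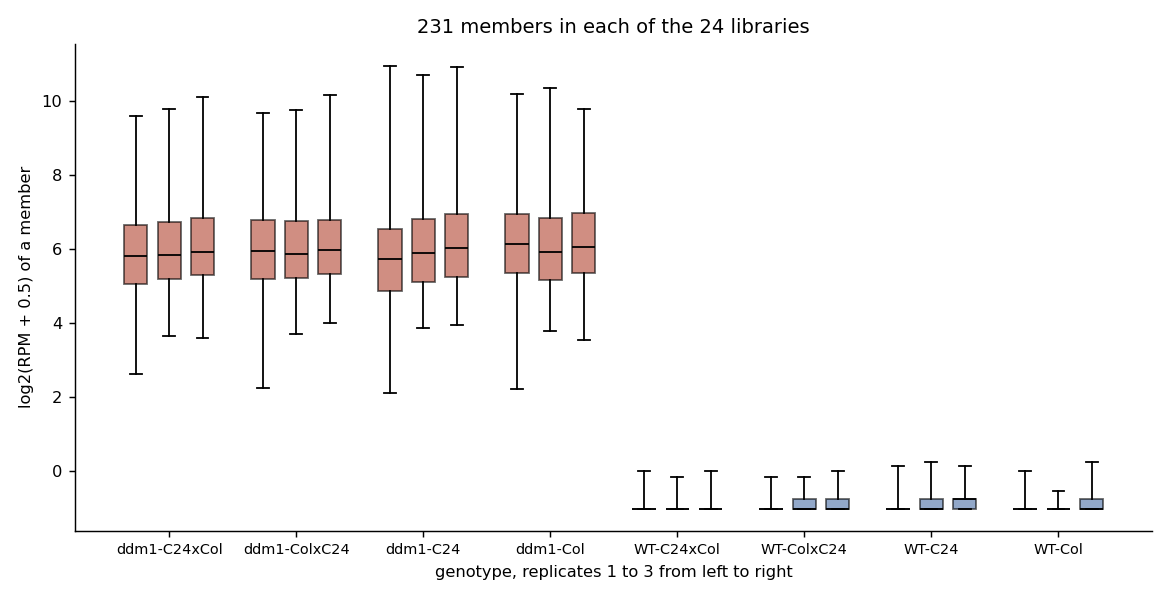
Level of the 231 members as log2(RPM + 0.5) (y axis) in each of the 24 libraries (x axis, by genotype and replicate number), where a box spans the quartiles with its median line and the whiskers run from the lowest to the highest member. The 12 ddm1 libraries lie far above the 12 WT libraries, and the lowest single value in ddm1-F1 (4.3 RPM) is above the highest single value in WT-F1 (0.5 RPM).

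The hybrids gave the test that the rule did not use. With limma on log2(RPM + 0.5), and p-values adjusted over all 22329 loci tested, 231 of 231 members were higher in ddm1-F1 than in WT-F1, where 9.23% of all loci tested were called higher and 1.18% lower. The log2 difference had a median of 6.80 over the members (range 4.80 to 10.41), and the largest adjusted p was 2.29e-06. Since 70 members were at 0 in all 6 WT-F1 libraries, the size of this difference depends on the pseudocount, and the median was 8.99 with a pseudocount of 0.1 and 5.83 with a pseudocount of 1. The median of all loci tested was -0.03. Each direction of the cross alone gave the same count. All 231 members were higher in ddm1-C24xCol than in WT-C24xCol (7.89% of all loci tested called higher, 0.148% lower, median log2 difference of the members 6.78, largest adjusted p 0.0022) and in ddm1-ColxC24 than in WT-ColxC24 (8.06% and 0.116%, median 6.83, largest adjusted p 0.0023). The 6 ddm1-F1 values lay above the 6 WT-F1 values without overlap in 231 members, against 94.2% of the other silent loci and 8.68% of all loci tested. The members were chosen for the same difference in the parents, so this shows that it was present in the hybrids, and nothing more about these loci among others. The share of the other silent loci was partly set in advance, since they passed the filter with the help of ddm1 or hybrid libraries. The difference between the ddm1 effects in the 2 directions of the cross, tested as an interaction in limma, was called for 0 members, and for 0 with a block for the number.

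The level reached in ddm1-F1 was uneven. The mean over the 6 ddm1-F1 libraries ran from 17.7 to 894.7 RPM, with a median of 58.8 RPM and quartiles of 37.9 and 103.8 RPM. Above 100 RPM were 63 members, above 200 RPM were 21, and 5 were under 20 RPM. The 10 members with the highest means held 21.1% of the sum over the 231. Per kilobase of exonic length the median was 24.1 RPM per kb and the range 1.28 to 420.4. On that scale the highest of the 231 were AT5G28785 (420.4 RPM per kb), AT1G59930 (339.0), AT2G04770 (221.6), AT5G32143 (201.4) and AT3G32240 (194.5), all at most 2481 bases long.

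AT3G32230, a pseudogene on the plus strand of chromosome 3 at 13203901-13208938, had the highest mean RPM in ddm1-F1 of the 231 members. It had 767.4, 775.4 and 1105.5 RPM in ddm1-C24xCol and 814.9, 775.8 and 1129.3 RPM in ddm1-ColxC24, against a lowest, median and highest value of 0, 0.15 and 0.4 RPM in WT-F1. Its log2 difference was 10.41 ± 0.18 (SE, limma, adjusted p = 2.27e-14). The ddm1 parents had 1350.8, 1659.3 and 1914.4 RPM in ddm1-C24 and 524.4, 571.7 and 663.2 RPM in ddm1-Col. Every ddm1-F1 library thus lay between the parental ranges.

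Direct repeats aligned over 1085 bases (87.2% identical) flank AT1G36630, outside the locus at 13838040-13839100 and 13852557-13853588. This pseudogene of 7481 bases on the minus strand of chromosome 1 (13840145-13847625) has no other member in its family. It had 731.1, 882.6 and 673.1 RPM in ddm1-C24xCol and 762.1, 864.5 and 698.7 RPM in ddm1-ColxC24, against 0, 0.25 and 0.5 RPM (lowest, median, highest) in WT-F1 (log2 difference 10.03 ± 0.16, SE, limma, adjusted p = 1.99e-14). In its parents it had 1953.4, 1381.3 and 1478.6 RPM in ddm1-C24 and 1158.8, 1293.9 and 672.6 RPM in ddm1-Col. All 6 hybrid values were below the 3 of ddm1-C24 and overlapped those of ddm1-Col, and the F1 mean was 0.581 times the mid-parent value (MPV, the mean of the ddm1-C24 and ddm1-Col means).

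AT3G32240 starts 797 bases beyond AT3G32230 on the same strand and is not its relative in sequence. It had 477.5, 448.9 and 560.4 RPM in ddm1-C24xCol, 473.4, 416.4 and 518.0 RPM in ddm1-ColxC24, 838.8, 938.7 and 1028.5 RPM in ddm1-C24 and 191.8, 117.8 and 148.6 RPM in ddm1-Col. The ddm1-C24 mean was 6.12 times the ddm1-Col mean, the highest such ratio of the 231, and the hybrids lay between with 0.887 times MPV. The other 7 of the 10 highest means were those of AT2G11780 (504.9 RPM), AT2G06720 (389.3 RPM), AT1G35300 (348.8 RPM), AT4G06506 (327.5 RPM), AT1G42500 (269.7 RPM), AT3G30780 (263.8 RPM) and AT4G06485 (244.6 RPM), all annotated as pseudogenes and with log2 differences between ddm1-F1 and WT-F1 of 8.78 to 9.73.

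Most pairs of members with nearly identical windows at their annotated starts had levels within 2-fold of each other, with wide exceptions. Within the 8 largest families 23 pairs of members had windows at least 95% identical, and the level per kilobase differed within a pair by a median of 1.47-fold (range 1.03-fold to 18.3-fold), with 18 pairs (78.3%) within 2-fold. In the other 1039 pairs within these families the median was 2.23-fold and 45.0% were within 2-fold. A locus stands in several pairs, and near-identical copies may share reads. The widest pair was AT4G06506 and AT2G13390, whose windows are printed above, and AT4G06506 was also in the next widest (12.7-fold, with AT3G43304). AT4G06506 had 456.5, 318.0 and 161.9 RPM in ddm1-C24xCol and 500.3, 320.5 and 207.9 RPM in ddm1-ColxC24, or 57.5 RPM per kb on average. AT2G13390, named after its values were seen, had 24.2, 28.9 and 27.4 RPM in ddm1-C24xCol and 24.9, 29.5 and 30.7 RPM in ddm1-ColxC24, or 3.14 RPM per kb. Both have most of their length covered by near-identical sequence elsewhere, so the division of reads between such copies is uncertain.

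The 15 members that are not annotated as pseudogenes held 3.53% of the sum and had a median F1 to MPV ratio of 0.968. Among them are a MADS-box family gene (AT1G59930), whose class encodes DNA-binding transcription factors, and a gene of the ribosomal protein L7Ae/L30e/S12e/Gadd45 family (AT1G36240), whose class binds RNA. A pair of Ulp1 protease family genes (AT5G28810 and AT5G45570) belongs to a class that cleaves the SUMO modifier and whose domain is also carried by some plant DNA transposons. The others are a gene for a beta-galactosidase related protein (AT3G24542), a gene annotated as an aminoacyl-tRNA ligase (AT3G42723), a non-coding RNA (AT2G06562), and the uncharacterised AT2G11773, AT3G25719, AT3G29080, AT3G29639, AT4G08593, AT4G08691, AT5G34869 and AT5G41660.

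AT3G42723 showed the closest replicates of these. It had 22.2, 23.4 and 26.5 RPM in ddm1-C24xCol, 24.8, 22.7 and 23.5 RPM in ddm1-ColxC24, 19.4, 21.6 and 21.3 RPM in ddm1-C24 and 25.7, 25.4 and 23.3 RPM in ddm1-Col, with 0 to 0.1 RPM in WT-F1 (log2 difference 5.56 ± 0.10, SE, limma, adjusted p = 5.08e-14). All 4 mutant genotypes were within 19.4 to 26.5 RPM. AT3G29639 had 32.2, 38.8 and 37.8 RPM in ddm1-C24xCol, 31.5, 43.9 and 47.1 RPM in ddm1-ColxC24, 90.1, 102.8 and 110.1 RPM in ddm1-C24 and 17.9, 25.1 and 27.5 RPM in ddm1-Col, and was at 0.1, 0.30 and 0.4 RPM (lowest, median, highest) in WT-F1. The hybrids of AT3G29639 lay between the parents without overlap, nearer to ddm1-Col (0.619 times MPV). AT3G29639 and AT1G36630 (each a mean of 0.25 RPM) and AT2G15070 (0.23 RPM) had the highest means in WT-F1 of the 231.

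AT1G59930, at 22060924-22061516 on the minus strand of chromosome 1 and 7.01 Mb from the densest pseudogenes, is annotated as a maternally expressed imprinted gene. It had 365.4, 168.9 and 20.1 RPM in ddm1-C24xCol (C24 mother) and 471.1, 160.6 and 20 RPM in ddm1-ColxC24 (Col mother), against 0, 0.10 and 0.4 RPM (lowest, median, highest) in WT-F1 (log2 difference 7.49 ± 0.73, SE, limma, adjusted p = 2.29e-06). Its parents had 941.9, 109.0 and 115.6 RPM in ddm1-C24 and 294.3, 131.8 and 11.2 RPM in ddm1-Col. The 2 directions of the cross did not differ beyond the replicates (log2 difference of ddm1-C24xCol against ddm1-ColxC24 -0.10 ± 1.38, SE, limma, adjusted p = 1.0; with the replicate block ± 0.08, adjusted p = 0.698). Replicate number, not cross, went with its level, and the highest ddm1-F1 value was 23.6 times the lowest.

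Relative to their parents the hybrids were close to or somewhat below the mid-parent value, which is given as a description because the parental means chose the members. The median ratio of the ddm1-F1 mean to MPV was 0.943 (quartiles 0.822 and 1.04, range 0.286 to 1.65), with 155 members (67.1%) under 1, against 60.4% of the other silent loci and 62.9% of all loci tested, whose median was 0.958. The ratio was under 0.5 in 12 members and over 1.5 in 3. The F1 mean was below both parental means in 68 members (29.4%, against 13.5% of the other silent loci and 24.6% of all loci tested), between them in 143 (61.9%, against 79.0% and 60.6%) and above both in 20 (8.66%, against 7.41% and 14.8%). Leaving out ddm1-C24 replicate 1 gave a median ratio of 0.889 and leaving out ddm1-C24 replicate 3 gave 0.980, and with ddm1-C24 replicates 2 and 3 counted as 1 sample it was 0.966. By direction, ddm1-C24xCol had a median of 0.917 (166 members under 1) and ddm1-ColxC24 a median of 0.959 (142 under 1), both against the same MPV. The sum over members was 19267.5 to 22298.4 RPM in the 6 ddm1-F1 libraries and 22630.2 to 27255.1 RPM in the 6 ddm1 parental libraries, so the 2 sets did not overlap. After rescaling by median ratios they did, at 19831.9 to 25442.0 in ddm1-F1 and 22543.1 to 30636.5 in the parents, and 130 members were under MPV with a median ratio of 0.975.

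**Figure D3:**
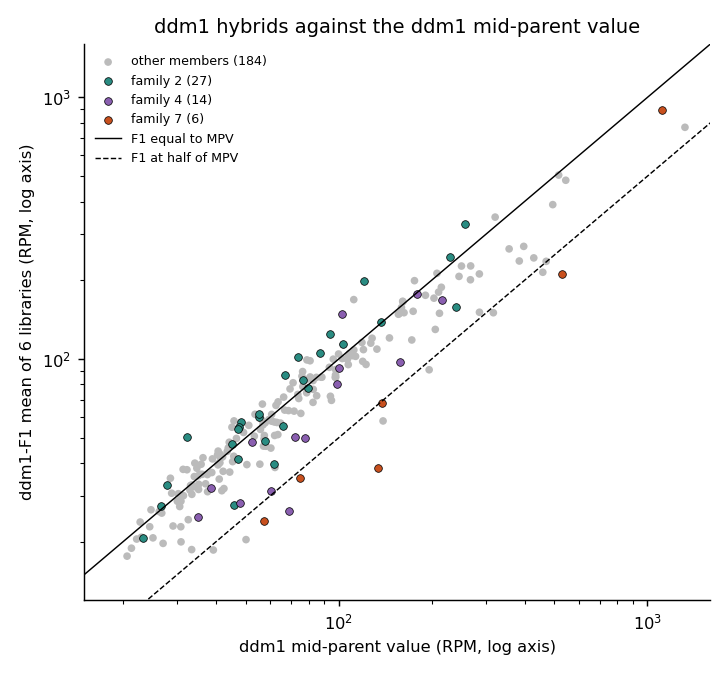
Mean RPM of the 6 ddm1-F1 libraries (y axis, log scale) against MPV of the ddm1 parents (x axis, RPM, log scale), 1 point for each of the 231 members, with families 2, 4 and 7 coloured and lines at MPV and at 0.5 times MPV. Most points lie near the line at MPV (median ratio 0.943), and 12 lie below the lower line.

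All 6 ddm1-F1 libraries were below all 6 ddm1 parental libraries in 6 members (2.60%), against 0.980% of the other silent loci and 0.175% of all loci tested, and above them in 0 members, against 0.306% and 0.125%. These were AT3G32226, AT3G43304, AT4G03310, AT4G06592, AT5G28785 and AT5G32516, some of which are outside the naming rule and are named after their values were seen. AT3G32226, a pseudogene of 3722 bases 1548 bases before AT3G32230, had 36.6, 27 and 37.8 RPM in ddm1-C24xCol and 41.3, 36.7 and 50.5 RPM in ddm1-ColxC24, against 88.1, 87.4 and 100.9 RPM in ddm1-C24 and 168.9, 172.8 and 185.1 RPM in ddm1-Col. Its F1 mean was 0.286 times MPV, the lowest ratio of the 231, and 99.1% of its length has near-identical sequence elsewhere. AT5G32516 had 25.1, 19.0 and 22.1 RPM in ddm1-C24xCol and 40.9, 25.7 and 25.3 RPM in ddm1-ColxC24, against 72.1, 66.1 and 71.5 RPM in ddm1-C24 and 93.1, 52.4 and 58.6 RPM in ddm1-Col (0.382 times MPV). It has no near-identical copy, as measured by sequence covered elsewhere. AT1G42520, whose ratio was also among the 4 lowest, had 12.4, 22.4 and 20.5 RPM in ddm1-C24xCol and 12, 27.2 and 28.1 RPM in ddm1-ColxC24, against 24, 56.7 and 65.1 RPM in ddm1-C24 and 34.1, 65.8 and 55.3 RPM in ddm1-Col (0.407 times MPV). Its hybrid and parental values overlapped. AT5G28785 had 215.4, 218.0 and 240.0 RPM in ddm1-C24xCol and 247.3, 249.9 and 252.1 RPM in ddm1-ColxC24, against 385.9, 461.5 and 508.4 RPM in ddm1-C24 and 352.4, 344.9 and 255.6 RPM in ddm1-Col. The highest hybrid and the lowest parental library of this locus were only 252.1 and 255.6 RPM.

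The position of the hybrids differed more between sequence families than the overall median shows. Family 7, the relatives of AT3G32230, had 6 members on chromosomes 1, 2 and 3 with F1 to MPV ratios of 0.286 to 0.803 (median 0.444), all under 1 and 4 of them below both parental means. Besides AT3G32226 and AT3G32230 these were AT1G36190 (0.399), AT3G30790 (0.420), AT2G13000 (0.468) and AT1G36200 (0.494). AT1G36190 had 125.1, 208.6 and 256.2 RPM in ddm1-C24xCol and 150.4, 231.8 and 291.2 RPM in ddm1-ColxC24, against 69.2, 143.7 and 172.1 RPM in ddm1-C24 and 793.5, 1110.5 and 881.1 RPM in ddm1-Col. AT1G36200, its neighbour on the same strand, had 47.0, 64.8 and 75.4 RPM in ddm1-C24xCol and 54.7, 70.4 and 97.3 RPM in ddm1-ColxC24, against 93.7, 146.7 and 165.7 RPM in ddm1-C24 and 113.5, 145.3 and 164.3 RPM in ddm1-Col. The 2 neighbours both lay under MPV in the hybrids, although the accessions differed at the first and not at the second. Members of a family share sequence and may share reads, so they are not independent observations.

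Family 2, with 27 members, lay mostly above MPV, with a median of 1.09 (range 0.600 to 1.65) and 8 members under 1. Its member AT4G07942 had the highest ratio of the 231, with 218.7, 217.5 and 84.9 RPM in ddm1-C24xCol and 306.3, 259.7 and 105.7 RPM in ddm1-ColxC24, against 132.1, 85.4 and 85.1 RPM in ddm1-C24 and 199.8, 151.7 and 69.8 RPM in ddm1-Col. Its hybrid and parental values overlapped. The next ratios were those of AT4G03860 (1.56, family 2), AT4G04170 (1.51) and AT5G32143 (1.45, family 4). Family 8, with 5 members, had ratios of 1.09 to 1.27, none under 1. Family 1, the other family of 27, had a median of 0.902 with 24 under 1, family 4 of 14 had 0.743 with 13 under 1, and family 5 of 11 had 0.824 with all 11 under 1. Families 3 and 6 had medians of 0.950 and 0.966 (0.991 and 1.01 after rescaling by median ratios, where family 6 was the only family of the 8 whose median crossed 1), and the 84 members without a relative 0.955. The share of near-identical sequence moved with these values in part. The median was 0.908 in the 97 members covered to at least 50%, 0.987 in the 58 covered to less and 0.955 in the 76 not covered, and 8 of the 12 members with ratios under 0.5 were in the first of these classes. Its part in the result was not tested.

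**Figure D4:**
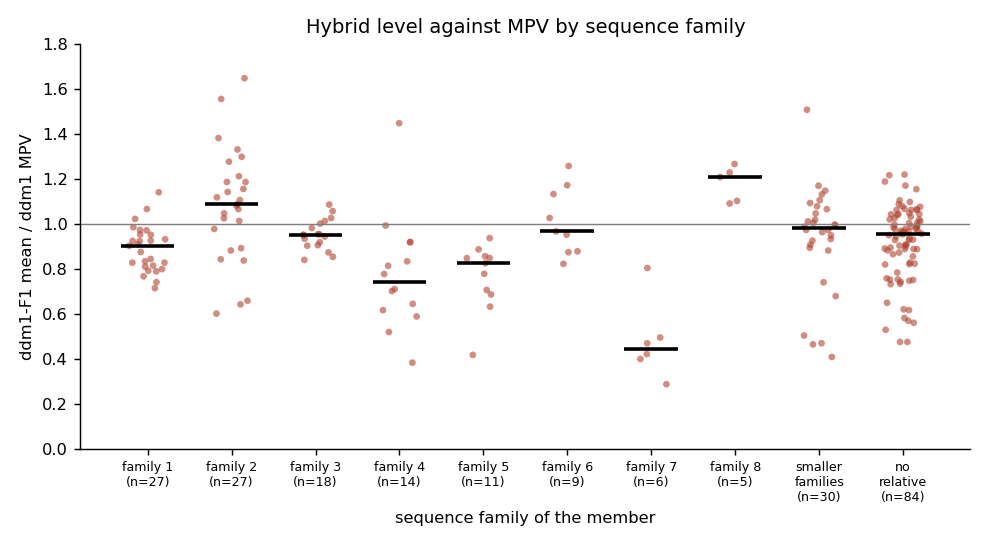
Ratio of the ddm1-F1 mean to MPV (y axis) for each member, by sequence family 1 to 8, smaller families and members without a relative (x axis), with each dot a member and each bar the median. Family 7 (median 0.444) and family 4 (0.743) lie low and families 2 (1.09) and 8 (1.21) lie above 1.

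Between the mutant accessions the members were balanced as a group and uneven one by one, again as a description. The ratio of the ddm1-C24 mean to the ddm1-Col mean had a median of 0.978 (quartiles 0.661 and 1.34, range 0.0226 to 6.12). It was under 0.5 in 30 members and over 2 in 19, so 21.2% were more than 2-fold apart, against 68.2% of the other silent loci and 18.2% of all loci tested. The rule asked for at least 20 RPM in both accessions, which bears on this share. The 3 ddm1-C24 libraries were all below the 3 ddm1-Col libraries in 60 members (26.0%, against 39.9% of the other silent loci and 13% of all loci tested) and all above them in 39 (16.9%, against 29.7% and 16.8%). AT3G42650 had the lowest ratio, with 14.1, 21.4 and 26.9 RPM in ddm1-C24 and 1018.9, 885.9 and 853.7 RPM in ddm1-Col, and its hybrids had 207.4, 219.8 and 256.1 RPM (ddm1-C24xCol) and 232.6, 219.4 and 282.9 RPM (ddm1-ColxC24), or 0.503 times MPV. AT1G36260 (ratio 0.0467) and AT2G04770 (0.0903) followed, with hybrids at 0.468 and 1.02 times MPV. At the other end stood AT3G32240 (6.12), AT3G29639 (4.30) and AT3G30790 (2.88).

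Among the 49 members more than 2-fold apart, the place of the hybrid on the line from the lower parent (0) to the higher parent (1) had a median of 0.421, against 0.448 for the other silent loci and 0.406 for all loci tested that were as far apart. In the 30 members higher in ddm1-Col it was 0.502, against 0.507 and 0.537, and in the 19 higher in ddm1-C24 it was 0.227, against 0.218 and 0.145. Of these 19, 15 were nearer to the lower parent, ddm1-Col, as were 410 of 500 other silent loci and 1891 of 2139 of all loci tested. No test of these places was made.

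Direction of the cross made no called difference without a block for replicate number. In limma, 0 members differed between ddm1-C24xCol and ddm1-ColxC24, 0 had an unadjusted p under 0.05, and of all 22329 loci 0 (0% higher, 0% lower) were called and 90 had an unadjusted p under 0.05. The log2 differences of ddm1-C24xCol against ddm1-ColxC24 had a median of -0.08 over the members (range -0.54 to 0.44), with 177 of 231 (76.6%) below 0, against 66.4% of the other silent loci and 48.1% of all loci tested. All 27 members of family 2 were below 0, also after rescaling. Leaving out a library left 43 to 107 members above 0. Blocking on replicate number, limma called 4 members, 1 higher and 3 lower, against 0.443% of all loci tested called higher and 0.488% lower. In that fit 79 of the 231 members had an unadjusted p under 0.05, against 2790 of the 22329 loci tested. AT1G36240 was higher in ddm1-C24xCol, with 23.2, 61.7 and 87.9 RPM in ddm1-C24xCol against 17, 53.9 and 54 RPM in ddm1-ColxC24 (log2 0.44, blocked adjusted p = 0.0467 in limma). AT4G03310 was lower, with 130.3, 114.3 and 136.9 RPM in ddm1-C24xCol against 170.3, 149.5 and 204.9 RPM in ddm1-ColxC24 (log2 -0.45, blocked adjusted p = 0.0076 in limma). AT4G07942 (log2 -0.35, blocked adjusted p = 0.0302) and AT5G33389 (log2 -0.34, blocked adjusted p = 0.0314), both of family 2, were lower as well, the second named after its values were seen. The largest differences, in AT2G12240 (log2 -0.54) and AT3G42057 (log2 -0.46), were not called in limma in either way (AT2G12240 adjusted p = 1.0, blocked adjusted p = 0.134).

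Libraries that share a replicate number had alike levels of many members, whatever the cross, and about as often of all loci tested. In ddm1-F1 the pair of libraries of some number lay apart from the other 4 in 205 members (88.7%), against 74.2% of the other silent loci and 87.2% of all loci tested. Both libraries numbered 1 were above the other 4 in 55 members (23.8%, background 17.8%) and below them in 98 (42.4%, background 40.5%). Those numbered 2 were above in 10 members (background 8.34%) and below in 34 (background 16.4%), and those numbered 3 were above in 94 (background 42.3%) and below in 32 (background 10.5%). Across all 4 ddm1 genotypes, number 1 was the highest of each genotype in 56 members (24.2%, background 16.3%) and the lowest of each in 81 (35.1%, background 38.1%). Number 2 was the highest in 1 member (0.433%, background 2.51%) and the lowest in 21 (9.09%, background 6.18%). Number 3 was the highest in 75 (32.5%, background 23.2%) and the lowest in 6 (2.60%, background 4.12%). Over the 6 ddm1-F1 libraries a member ranged by a median of 0.79 on the log2 scale, against 0.89 for the other silent loci and 0.85 for all loci tested. A range of more than 1 was seen in 76 members (32.9%), against 40.2% and 37.5%.

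AT2G12240, a pseudogene of family 3, was high in number 1, with 136.2, 26.3 and 14 RPM in replicates 1, 2 and 3 of ddm1-C24xCol and 139.0, 37.1 and 30.5 RPM in those of ddm1-ColxC24. Its parents had 207.8, 44.7 and 14.9 RPM in ddm1-C24 and 77.6, 23.5 and 33.1 RPM in ddm1-Col. AT1G50850 of the same family, named after its values were seen, was low in number 1, with 44.7, 223.7 and 276.1 RPM in ddm1-C24xCol and 49.1, 228.8 and 203.4 RPM in ddm1-ColxC24. Its parents had 18.9, 236.8 and 273.1 RPM in ddm1-C24 and 84.4, 303.1 and 305.7 RPM in ddm1-Col. The replicate number thus went with opposite differences in these 2 members of family 3. Over the 18 members of that family, both ddm1-F1 libraries numbered 1 were below the other 4 in 13 and above them in 3. AT3G32230 was highest in number 3 in all 4 ddm1 genotypes, with its 6 ddm1-F1 values within 767.4 to 1129.3 RPM. The marker sums also moved with the number, with medians of 23809.8 RPM in number 1 and 19099.1 RPM in numbers 2 and 3 for the shoot list, 75.4 and 61.0 RPM for the root list and 149.7 and 58.1 RPM for the seed list. What the number stands for is not given, and its part in the members' levels was not tested.

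**Figure D5:**
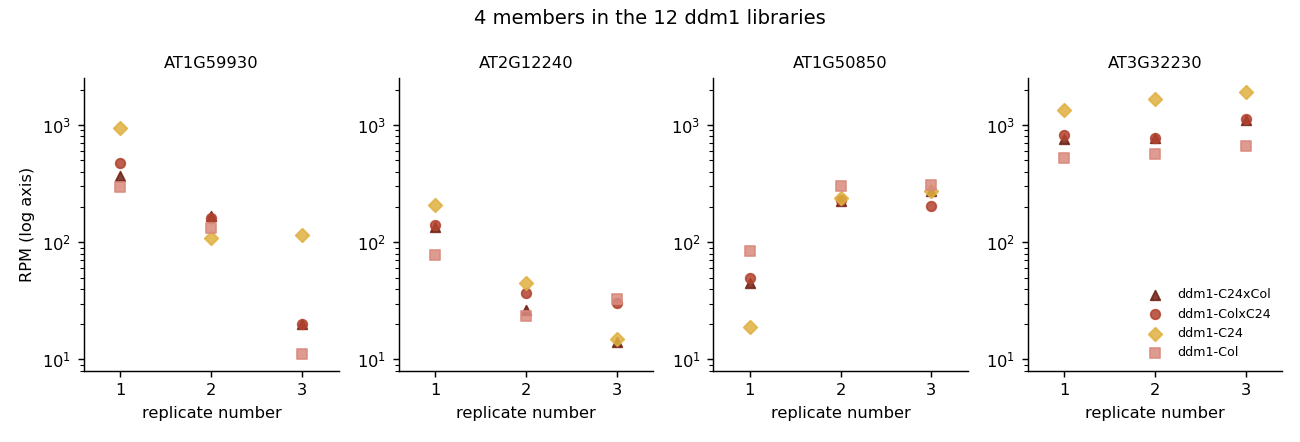
RPM (y axis, log scale) of AT1G59930, AT2G12240, AT1G50850 and AT3G32230 in the 12 ddm1 libraries, by replicate number (x axis), with each point a library and its genotype by colour. AT1G59930 and AT2G12240 are highest in number 1 in all 4 genotypes, and AT1G50850 is lowest there. AT3G32230 is highest in number 3 in all 4 genotypes, between 524.4 and 1914.4 RPM.

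Some members lay side by side. A neighbouring member within 2 kb was found for 61 members, in 33 pairs, of which 30 were on the same strand. The same count was not made for the other silent loci or all loci tested, so it has no background here. Within a pair the ratio of ddm1-C24 to ddm1-Col differed by a median of 1.58-fold. The largest gap was 6.94-fold, between AT1G36190 (ratio 0.138) and AT1G36200 (0.960), and AT3G32226 (0.525) and AT3G32230 (2.80) were 5.33-fold apart. Over all pairs of the 231 members the median was 1.72-fold. The ratios were within 2-fold in 25 of the 33 neighbour pairs (75.8%) and in 60.2% of all pairs. By chromosome the sum of ddm1-F1 means was 4758, 4508, 4940, 4096 and 3040 RPM on chromosomes 1 to 5, and the median F1 to MPV ratio was 0.918, 0.950, 0.929, 0.980 and 0.926. It was 0.946 within 2 Mb of the densest pseudogenes and 0.936 beyond.

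The transcripts of the silencing machinery itself differed little between ddm1-F1 and WT-F1. Of 21 genes for maintenance of methylation and heterochromatin, among them the CG methyltransferase MET1, the non-CG methyltransferases CMT2 and CMT3 and the histone H2A.W genes, 0 were called in limma with adjustment over all loci (1 had an unadjusted p under 0.05), with log2 differences of -0.40 to 0.25. MET1 averaged 44.5 RPM in ddm1-F1 and 41.3 RPM in WT-F1. Of 13 genes for small RNA silencing 0 were called (3 at an unadjusted p under 0.05), with log2 differences of -0.31 to 0.33. Blocking on replicate number, 8 of the 21 (1 higher, 7 lower) and 6 of the 13 (2 higher, 4 lower) were called, where 13.5% of all loci tested were called higher and 11.5% lower. Of these, the H2A.W gene HTA12 averaged 11.8 RPM in ddm1-F1 and 15.6 RPM in WT-F1 (log2 -0.40, limma adjusted p = 0.300, blocked adjusted p = 0.0051). DCL2, which makes small interfering RNAs from viral and other double-stranded RNA, averaged 22.7 RPM and 27.7 RPM (log2 -0.29, limma adjusted p = 0.195, blocked adjusted p = 0.0111). DDM1 itself was among the 7 called lower with the block (log2 -0.35, limma adjusted p = 0.744, blocked adjusted p = 0.0245).

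The limit of 20 RPM cut through a continuum. Just inside it, by the lower of the 2 ddm1 parental means, were AT3G25719 (20.2 RPM), AT1G49090 (20.2 RPM) and AT5G28810 (20.6 RPM), with ddm1-F1 means of 17.7, 49.8 and 30.6 RPM. Just outside were AT4G06560 (19.8 RPM), AT4G08598 (19.7 RPM) and AT1G38194 (19.6 RPM), with ddm1-F1 means of 25.4, 19.3 and 25.7 RPM. The hybrid levels on either side of the limit overlapped. Beyond the members, 104 silent loci reached 20 RPM in ddm1-C24 alone and 185 in ddm1-Col alone.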

How the data were processed

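Libraries were made from RNA of whole seedlings and sequenced by the authors as paired-end reads. The authors aligned them with TopHat to TAIR10, counted reads per locus with HTSeq and deposited RPM, the reads of a locus scaled to a common total per library. TAIR10 is the Col genome, and settings for reads that match several places and for strand are not given in the sources used here. Since the deposited RPM values come in steps of 0.1, the reads behind them and the depth could not be recovered, and no count test was run. The bisulfite data of 4 samples were not used. No column of authors' comparisons was used.

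Loci with at least 1 RPM in at least 3 of the 24 libraries were tested (22329, with 6108 left out), a filter that all 231 members already passed on the ddm1 parents alone. Tests used limma 3.58.1 in R 4.3.3, with eBayes and trend on log2(RPM + 0.5), two-sided, Benjamini-Hochberg adjusted over all loci tested and called at an adjusted p under 0.05. A difference on this scale understates changes of low loci. The code was tested on simulated data. Annotation, exonic lengths and the windows at annotated starts came from RefSeq TAIR10.1, which matched all 231 members. Copies, families and repeats were found with BLAST 2.17.0 and motifs with Python 3.11.15.

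Members and lists were chosen with earlier results of these data known. Members named were, by rule, the 10 highest ddm1-F1 means, all that are not pseudogenes, the 4 highest and 4 lowest F1 to MPV ratios, the 3 highest and 3 lowest ratios of ddm1-C24 to ddm1-Col, the 3 largest differences between crosses, the 3 highest WT-F1 means and 3 loci on each side of the limit. Replicate numbers paired the libraries by the data, not by a label. In the 4 hybrid genotypes deviations from genotype means correlated across loci with a mean r of 0.816 in the 18 same-numbered pairs (lowest 0.657) and -0.39 in the other 36. Over all 8 genotypes the 84 same-numbered pairs averaged 0.757 (lowest 0.159). Alternatives were the replicate block, pseudocounts of 0.1 and 1, no filter, rescaling by median ratios, an added 2-fold limit, a single fit of all 24 libraries, other limits of the rule and leaving out each library. A block together with rescaling, and ddm1-C24 replicates 2 and 3 counted as 1 sample, were added after seeing the data.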

Additional observations from a re-analysis of the deposited data

Results flagged for a closer look

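AT5G32516 in replicate 1 of ddm1-ColxC24 stood apart from the other ddm1-F1 libraries. It had 40.9 RPM there, against 19.0 to 25.7 RPM in the other 5 ddm1-F1 libraries, and the gap to the nearest was 0.694 of the whole range, above Dixon's critical value for 6 samples. Replicate 1 of ddm1-Col also had the highest parental value of this locus, 93.1 RPM. Among the 42 named members tested in this way 1 was picked out, where chance picks out about 1 in 20, and the cause was not tested.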

How the results depend on the processing

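The counts of 231 members higher in ddm1-F1, in ddm1-C24xCol and in ddm1-ColxC24 than in their wild types were 231 under all 8 alternatives and with each library left out (12, 6 and 6 settings, range 231 to 231). The 42 named members kept their direction and call in all 20 settings of the ddm1-F1 test. The replicate block gave 231 in these 3 tests and changed no other call among the members than in the comparison of the crosses, where it called 4 members against 0 without it, and 10 together with rescaling (added after seeing the data). These 10 were 1 higher and 9 lower, against 123 and 157 of the 22329 loci tested. Leaving out a library, without the block, called 0 in that comparison. Over all loci the block called 3021 higher and 2569 lower in ddm1-F1, against 2061 and 263 without it. The rule found 386 loci with a lower limit of 10 RPM and 133 with 40 RPM, 222 to 247 with a library left out (247 without ddm1-C24 replicate 1, of which 229 were members), and 225 with ddm1-C24 replicates 2 and 3 counted as 1 sample. The median F1 to MPV ratio, 0.943 as reported, was 0.970 from means of log2 values, 0.975 after rescaling, 0.966 with those replicates counted as 1 sample, 0.935 as a median over replicate numbers paired as blocks, and 0.889 to 0.980 with a library left out. The median ratio of ddm1-C24 to ddm1-Col was 0.906 to 1.02 over 5 alternatives (1.00 with the replicate block) and 0.906 to 1.01 with a library left out. The RPM values do not show depth, so 0 to 0.5 RPM in WT libraries could not be told from silence. The cause of each of these shifts was not tested.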
